A study of Mus musculus with 4 samples.

Results

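Versican, fibronectin and 3 other genes of the extracellular matrix were followed in classical monocytes sorted from mouse bone marrow. The 5 genes were Vcan, Fn1, F13a1, Thbs1 and Tgfbi, taken by symbol from the 27998 genes of the count tables. They had been selected on measured values of these data, namely their difference between old and young mice and the share of cells that held them, so their age differences are given as a description and carry no test. Levels within a mouse, across cells in different states and with different surface antibodies, were not part of that choice and were tested. The lists of state genes and of other matrix genes were chosen with earlier results of these data known. The list of mature genes came from markers of the study.

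Cells came from wild-type C57BL/6 mice, 5 young and 5 old of each sex, with no treatment. The ages were 14 weeks (young) and 27 months (old) for males, and 15 weeks (young) and 26.5 months (old) for females. Marrow cells of each mouse were labelled with a hashtag antibody, pooled by sex and sorted as Ly6G- CD11b+ CD115+ Ly6C-high cells, so each sex was 1 library and sex and library cannot be told apart. Transcripts were counted as unique molecular identifiers (UMIs), 1 for each captured molecule, and the UMIs of a mouse were summed and scaled to CPM (UMIs per 1000000 of the mouse, with TMM factors).

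The extracellular matrix is the protein and sugar scaffold around cells. Vcan encodes versican, a large chondroitin sulfate proteoglycan that binds hyaluronan, and Fn1 encodes fibronectin, a fibre-forming glycoprotein that cells grip through integrins. F13a1 encodes the A subunit of clotting factor XIII, a transglutaminase that crosslinks fibrin and fibronectin, while Thbs1 encodes thrombospondin-1, which binds matrix and cell surface proteins and can activate latent TGF-beta. Tgfbi encodes a TGF-beta-induced matrix protein that binds collagens and integrins. Classical monocytes are known to transcribe versican, fibronectin and factor XIII.

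In the annotation of GRCm38, the Vcan gene (ENSMUSG00000021614.16) lay on the minus strand of chromosome 13 from 89655312 to 89742509. F13a1 (ENSMUSG00000039109.16) and Tgfbi (ENSMUSG00000035493.10) were on the same chromosome, at 36867178 to 37050244 on the minus strand and at 56609523 to 56639562 on the plus strand. Fn1 (ENSMUSG00000026193.15) was on the minus strand of chromosome 1 from 71585520 to 71653200, and Thbs1 (ENSMUSG00000040152.8) on the plus strand of chromosome 2 from 118111876 to 118127133. All 5 are protein-coding. Exons of Vcan, Fn1, F13a1 and Thbs1 overlapped noncoding genes of the opposite strand (Gm4117; Apol7d; Gm49144 and Gm30489; Gm29233). Whether counting used strand is not given in the sources used here, and reads of such partners could then not be told apart.

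The bases just before the gene start are shown for the 3 members of chromosome 13, among them Vcan, which had the widest span across cell states. They come from RefSeq on GRCm38.p6, read 5′ to 3′ on the strand of the gene, and stop before the first annotated transcript. Capitals mark matches on either strand to the GC box GGGCGG or to the purine box GAGGAAG, a form that the myeloid factor PU.1 binds.
Vcan, chr13:89742513-89742762, minus strand: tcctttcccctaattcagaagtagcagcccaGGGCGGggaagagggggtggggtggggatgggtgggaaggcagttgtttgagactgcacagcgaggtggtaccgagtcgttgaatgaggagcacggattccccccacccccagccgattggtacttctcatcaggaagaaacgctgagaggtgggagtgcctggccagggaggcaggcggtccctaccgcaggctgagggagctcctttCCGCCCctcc
F13a1, chr13:37050245-37050494, minus strand: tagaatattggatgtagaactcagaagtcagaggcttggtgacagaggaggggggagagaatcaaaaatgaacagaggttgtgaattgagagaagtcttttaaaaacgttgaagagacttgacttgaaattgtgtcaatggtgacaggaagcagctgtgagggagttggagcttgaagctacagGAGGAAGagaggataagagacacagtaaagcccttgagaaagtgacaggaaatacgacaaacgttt
Tgfbi, chr13:56609336-56609522, plus strand: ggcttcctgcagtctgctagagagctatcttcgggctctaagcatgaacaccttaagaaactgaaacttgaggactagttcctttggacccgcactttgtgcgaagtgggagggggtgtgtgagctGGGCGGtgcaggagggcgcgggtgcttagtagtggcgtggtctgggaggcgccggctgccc
The GC box was found before Vcan and Tgfbi, and before 32.7% of 32851 mouse gene starts searched over 250 bases. The purine box was found before F13a1 and before 10.6% of those starts. TTGCNNAA (the C/EBP core), TGANTCA (AP-1) and TATAAA were not in these 3 windows, and were in 9.56%, 6.75% and 12.4% of all of them. A match describes letters and is not evidence of binding.

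The data comprised 49 to 206 cells and 330586 to 1108320 UMIs per male mouse and 259 to 1592 cells and 2827638 to 18186954 UMIs per female mouse. More UMIs were counted per cell in old than in young mice, and the reason was not tested. Median UMIs per cell ran from 4489.5 to 8844 in the old males and from 3806 to 4456 in the young ones. In females they ran from 9699.5 to 13033 at the old age and from 7978 to 8990 at the young age. No barcode was shared by the 2 libraries. Of the markers of classical monocytes, Ly6c2 was detected in 89.6 to 95.7% of the cells of a male mouse and 98.5 to 100% of those of a female mouse, Ccr2 in at least 88.9%, and Csf1r in 43.3 to 64.3% of male and 89.4 to 93.8% of female cells. Lyz2 was found in at least 96.3% of the cells of a mouse, and Fcgr1 in 7.09 to 49.5% of male and 35.3 to 68.2% of female cells. Itgam RNA, which encodes CD11b, was seen in 0.565 to 6.73% of cells. Together these 6 markers summed to 15209 to 31809 CPM in old and 32668 to 35209 CPM in young males. In females the sums were 24172 to 29715 and 28131 to 29711 CPM. The part of this in the age differences of the members was not tested.

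Vcan was more abundant in old than in young females, with no overlap between the ages, and showed no such pattern in males. In old females the levels were 117, 62.9, 66.0, 102 and 85.4 CPM (mean 86.7 ± 23.2, SD, n = 5), and in young females 33.3, 37.6, 38.3, 32.0 and 32.1 CPM (34.7 ± 3.06, n = 5). Each old female thus exceeded each young female, and the old females varied more among themselves. The log2 fold change of old over young was 1.34 (SE 0.15) in the quasi-likelihood fit of edgeR, and leaving out 1 mouse at a time kept it between 1.22 and 1.44. It was 1.03 when every female barcode was given to the mouse of its leading hashtag, doublets included. In males, Vcan was at 14.7, 25.3, 37.4, 13.3 and 28.8 CPM in old mice and at 37.1, 57.5, 10.5, 43.9 and 13.6 CPM in young mice. These overlapped widely and rested on 6 to 39 UMIs per mouse, with a log2 fold change of -0.50 (SE 0.39). Dropping old male 3 gave -0.78, and dropping young male 2 gave -0.21. The female minus male difference of the age effects was 1.87 on the log2 scale (SE 0.46). It rests on the values that chose the gene and carries no test.

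**Figure D1:**
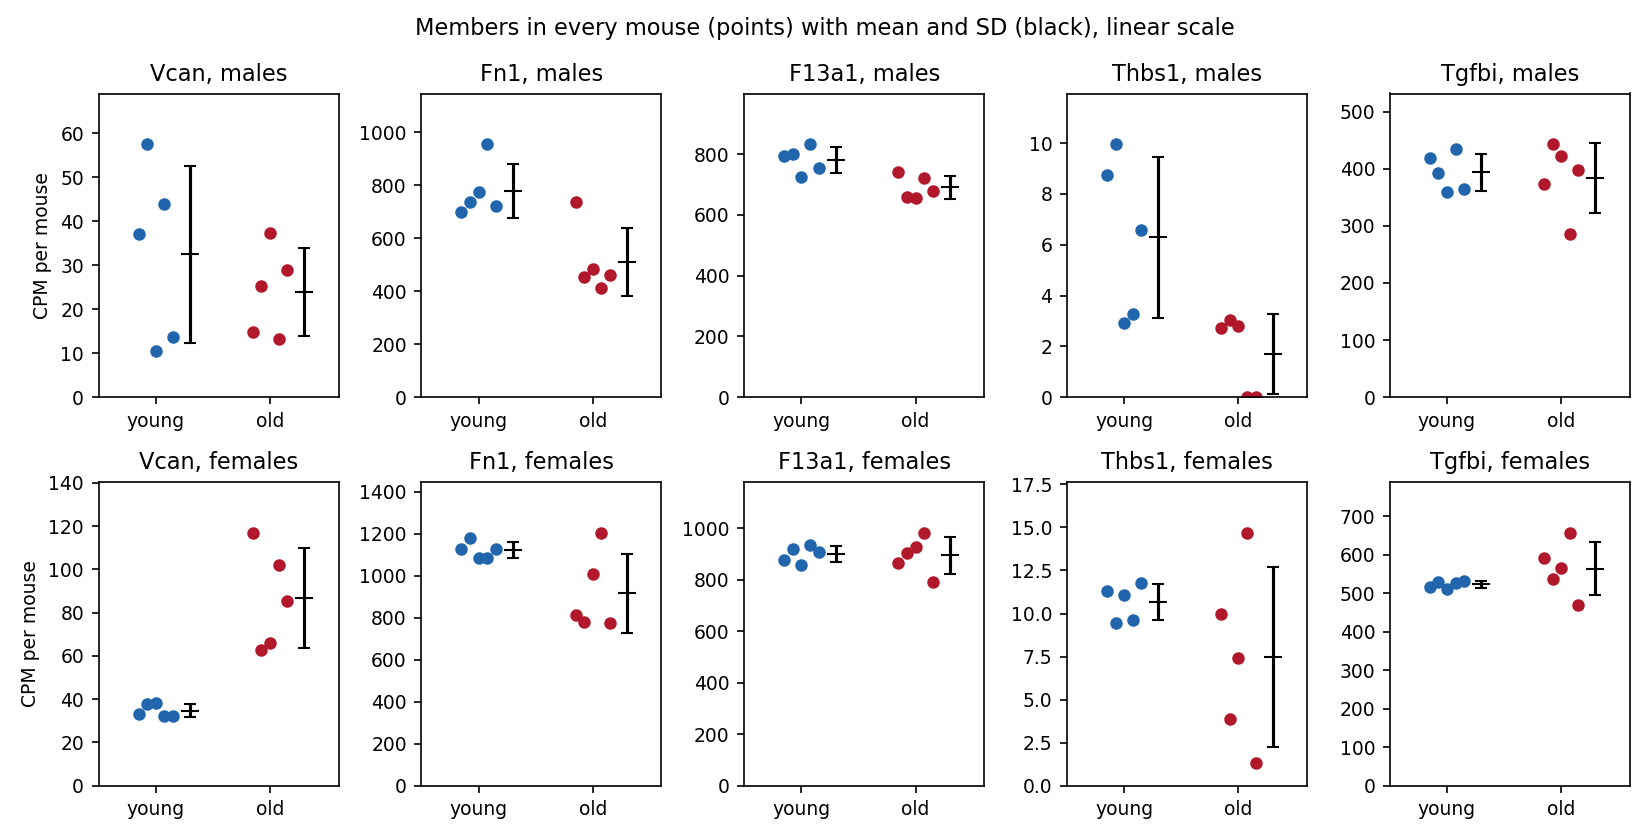
Normalized level in CPM of the 5 genes in each mouse (points; young in blue, old in red), with the mean and SD of 5 mice in black; males above, females below, each axis linear from 0 (Thbs1 in males by library size alone). The 5 old females sit at 62.9 to 117 CPM of Vcan, above the 5 young females at 32.0 to 38.3, whereas Fn1 in 4 of 5 old males lies below all young males.

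Mean Fn1 was lower in old mice of both sexes, with 1 old mouse of each sex in or above the young range. In males it was 735, 455, 484, 411 and 461 CPM in old mice (509 ± 129) against 700.2, 737, 776, 955 and 722 CPM in young mice (778 ± 103). Old male 1 lay within the young range and the other 4 below it. The log2 fold change was -0.60 (SE 0.14), and -0.78 without old male 1. In females, Fn1 was at 813, 782, 1009, 1206 and 776 CPM in old mice (917 ± 188) and at 1129.6, 1182, 1087, 1087 and 1128 CPM in young mice (1123 ± 39.2). Only old female 4 reached the young values, and the log2 fold change of -0.29 (SE 0.10) became -0.41 without that mouse. Beside this, the summed level of 7 genes of mature monocytes (among them Lyz2 and Chil3; Fn1 not included) was 12721 to 30419.9 CPM in old and 31848 to 34579 CPM in young males, and 22589 to 29264 against 26756 to 28619 CPM in females. Its part in the Fn1 values was not tested. These sums per mouse do not separate the share of cells that hold Fn1 from its level per cell. Among cells with at least 1 UMI of Fn1, its level was 997 ± 184 CPM in old and 1223 ± 26.9 CPM in young females. In males it was 669.5 ± 135 CPM in old and 958 ± 116 CPM in young mice. Such cells made up 93.3% of old and 94.7% of young female cells, and 74.1% and 82.1% of male cells. Cell depth affects both measures.

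F13a1 and Tgfbi differed less between the ages. F13a1 had 740.4, 660.4, 654, 721 and 679 CPM in old males and 795, 802, 725, 833 and 754 CPM in young males. The ranges overlapped only through old male 1, and the log2 fold change was -0.18 (SE 0.07). In females F13a1 was nearly level, with 895 ± 71.5 CPM in old and 901 ± 32.2 CPM in young mice (log2 fold change -0.01, SE 0.05). Tgfbi was at 285 to 443 CPM in old and 359.6 to 434 CPM in young males (-0.03, SE 0.11), a sign that turned to 0.13 with cells thinned to equal depth. It was at 469.8 to 657 CPM in old and 510.5 to 531 CPM in young females (0.11, SE 0.06). Thbs1 was scarce. It was at 10.0, 3.89, 7.44, 14.7 and 1.29 CPM in old females and at 11.3, 9.45, 11.1, 9.63 and 11.8 CPM in young females (-0.39, SE 0.33), with the young mice within a narrow band and the old mice on both sides of it. Dropping old female 4 gave a log2 fold change of -0.84, and dropping old female 5 gave -0.14. In males only 30 UMIs of Thbs1 were counted in all, 7 in old and 23 in young mice, too few to enter the fit. They lay in 0.838 ± 0.806% of old and 3.09 ± 1.61% of young male cells, and with no filter on low counts the log2 fold change was -1.55 (SE 0.60).

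Of the 5 members, 1 (Vcan, higher) passed the adjusted threshold in females, where 3.42% of all 10074 genes did. In males none of the 4 members tested passed with edgeR, where the share over all 5656 genes was 0%, although 618 genes were under 0.05 before adjustment. DESeq2 called 22 genes in males, Fn1 among them. Under other settings edgeR called Fn1 too. In males this was with no filter on low counts (95 of 13168 genes called) and without old male 1 (39 of 5765). In females it was with cells thinned to 2000 UMIs (158 of 7482) and without old female 4 (522 of 10132). Fn1 was not called under any of the remaining settings, which were the larger number in each sex. Levels of old and young mice did not overlap for 1 of 5 members in females, against 5.73% of all genes, and for 0 of 4 in males, against 2.10%. Since the age contrast had chosen the members, nothing is read from these counts.

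Detection in single cells is given as a description as well. It comes from the same UMIs and was among the values that chose the members, so it adds no separate support. A cell counted as positive with at least 1 UMI. In old females 48.1, 31.0, 36.7, 45.7 and 40.1% of cells were positive for Vcan (40.3 ± 6.87%), and in young females 20.2, 20.1, 22.4, 19.8 and 22.0% (20.9 ± 1.21%). With cells thinned to 2000 UMIs, leaving out shallower cells (3 of old and 1 of young females, 26 of old and 32 of young males), these means were 17.0 ± 3.55% and 7.82 ± 0.842%, again without overlap. Positive cells also held somewhat more of it, at 242 ± 21.2 CPM in old and 198 ± 21.4 CPM in young females. In males they held 221 ± 56.7 CPM in old and 315 ± 43.4 CPM in young mice. A male cell held at most 4 UMIs of Vcan, so these male values depend on cell depth, which was greater in old males. The part of depth in them was not tested. In males, Vcan was found in 12.5 ± 5.05% of old and 11.7 ± 6.04% of young cells, and in 6.31 ± 2.62% and 7.03 ± 4.54% after thinning. Fn1, F13a1 and Tgfbi were found in most cells, namely in 91.1 to 98.6% of the cells of each female and 68.1 to 92.2% of those of each male. After thinning, Fn1 was found in 54.4 ± 10.4% of old and 67.1 ± 5.18% of young male cells, and in 71.4 ± 5.39% and 79.0 ± 1.64% of female cells. Thbs1 was found in 6.01 ± 3.54% of old and 8.94 ± 0.809% of young female cells.

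**Figure D2:**
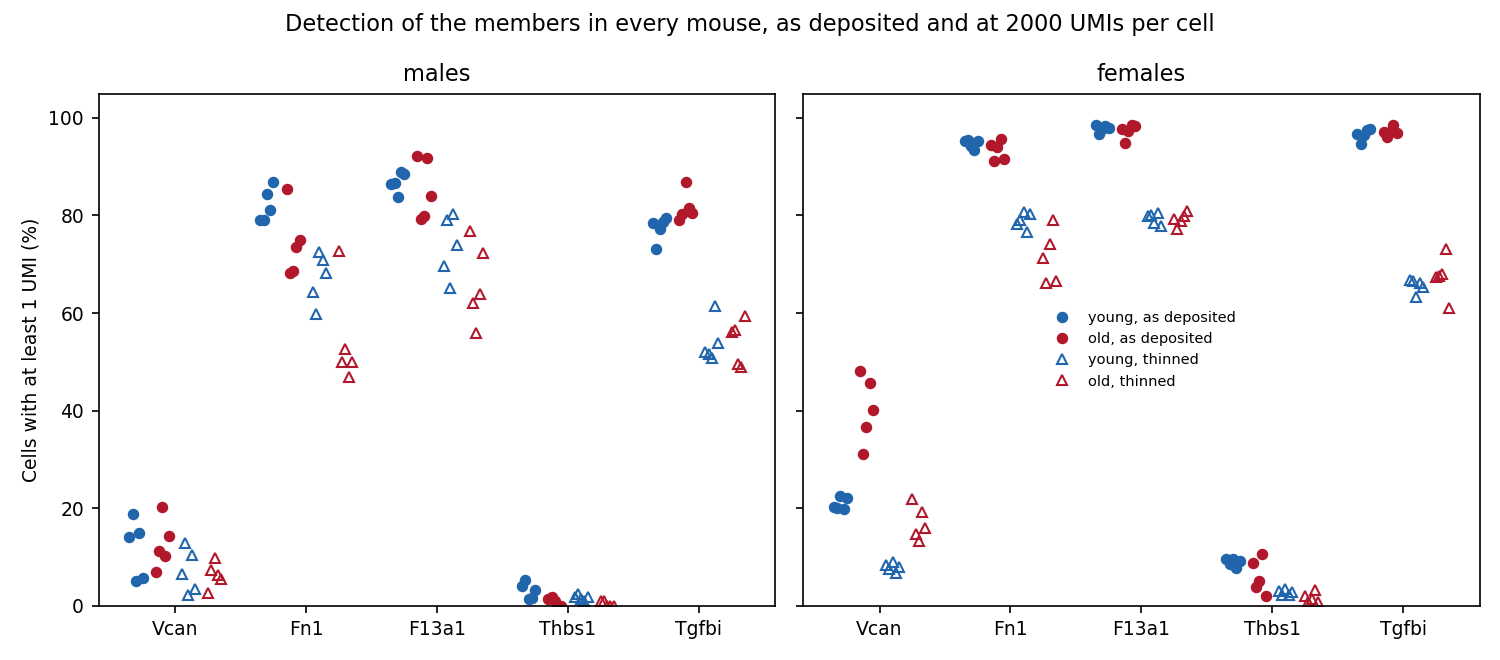
Percent of the cells of each mouse with at least 1 UMI of each gene, in males (left) and females (right); filled circles are cells as deposited, open triangles are cells thinned to 2000 UMIs, young in blue and old in red. Vcan in females separates the ages at both depths, while Fn1, F13a1 and Tgfbi are in most cells and fall to 46.8 to 81.0% of cells with thinning.

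Free RNA in the droplets can add UMIs to cells that do not transcribe a gene. Cells with T or NK cell markers and no Csf1r were few, 10 in the female library (median 7442 UMIs, against 9587 over all female cells), and 2 of them held Vcan (exact 95% interval of the share 2.52 to 55.6%), 4 held Fn1 (12.2 to 73.8%), 5 held F13a1 (18.7 to 81.3%), 4 held Tgfbi and 0 held Thbs1 (up to 30.8%). In all female cells the shares were 29.7, 94.2, 97.8, 97.1 and 7.68% for Vcan, Fn1, F13a1, Tgfbi and Thbs1. The 10 cells together held 3 UMIs of Vcan, 55 of Fn1, 35 of F13a1 and 14 of Tgfbi (35.1, 644, 409.7 and 164 CPM). Positive cells thus often held several UMIs. Whether some of them were monocytes or doublets was not tested, so these shares are no measure of free RNA alone. Of 15 male cells with basophil markers (median 1499 UMIs, against 4540), 0 held Vcan or Fn1 (up to 21.8%), and 1 held F13a1 and Tgfbi. The intervals cover counting error only and are too wide to bound the Vcan share. In female cells rich in granule transcripts (median 19849 UMIs), Vcan lay at 2.36 on the log2 CPM scale, against 6.27 in the other cells of the same mice (8617 UMIs). The part of free RNA in these values was not tested.

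Other cells that make these proteins were sought by their markers. Platelet and megakaryocyte genes summed to 0.439 to 0.795 CPM in old and 0.624 to 2.12 CPM in young females, with markers such as Ppbp, Gp1ba and Gp6 at 0. In males they summed to 3.02 to 76.3 CPM in old and 3.27 to 6.55 CPM in young mice, with Gp9, Gp1ba and Gp6 among those at 0. Stromal genes summed to a mean of 7.34 CPM in old and 8.63 CPM in young females (1 of 10, Lum, at 0), and in males, where 7 of 10 were at 0 (among them Col1a1, Col1a2, Col3a1 and Dcn), to 65.4 to 97.8 against 36.2 to 75.3 CPM. Marrow macrophage genes summed to 10.6 to 18.3 CPM in old and 14.2 to 20.1 CPM in young females, and to 9.02 to 71.5 and 10.9 to 23.3 CPM in males. None of these sums was higher in every old than in every young female. The part of such cells in the levels of the members was not tested. The summed level of MHC class II genes was higher in each old than in each young female, at 1430.1 to 8801 CPM in old and 831 to 1358 CPM in young mice (599 to 10542 and 1412 to 2298 CPM in males).

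The age difference in Vcan was also read within ranges of cell state. For each of 7 gene lists, the 20% of the cells of a mouse with the highest share of UMIs on the list were set apart from its other cells. These are ranges of a score and not cell types. The cut was set within each mouse, so cells of a range can differ between ages in the level of the list. The 7 lists divide the same cells, so the ranges are not independent. Members had been chosen on their age difference, so nothing is read from counts of ranges. Vcan was higher in old than in young females in all 14 ranges, by 0.82 to 1.72 on the log2 scale. In the fifth of cells highest in MHC class II transcripts the difference was 0.90, and in all other cells 1.36. Fn1 was lower in old females in all 14 ranges, by -0.21 to -0.42, and in old males in all 14, by -0.08 to -0.93. Vcan in males had a mixed sign, higher in 4 ranges and lower in 10. One sign in all ranges was not particular to Vcan and Fn1. Tgfbi was higher in old females in all 14, by 0.06 to 0.23, and Thbs1 was lower in old mice of both sexes in all 14. The signs of F13a1 in both sexes and of Tgfbi in males were mixed.

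**Figure D3:**
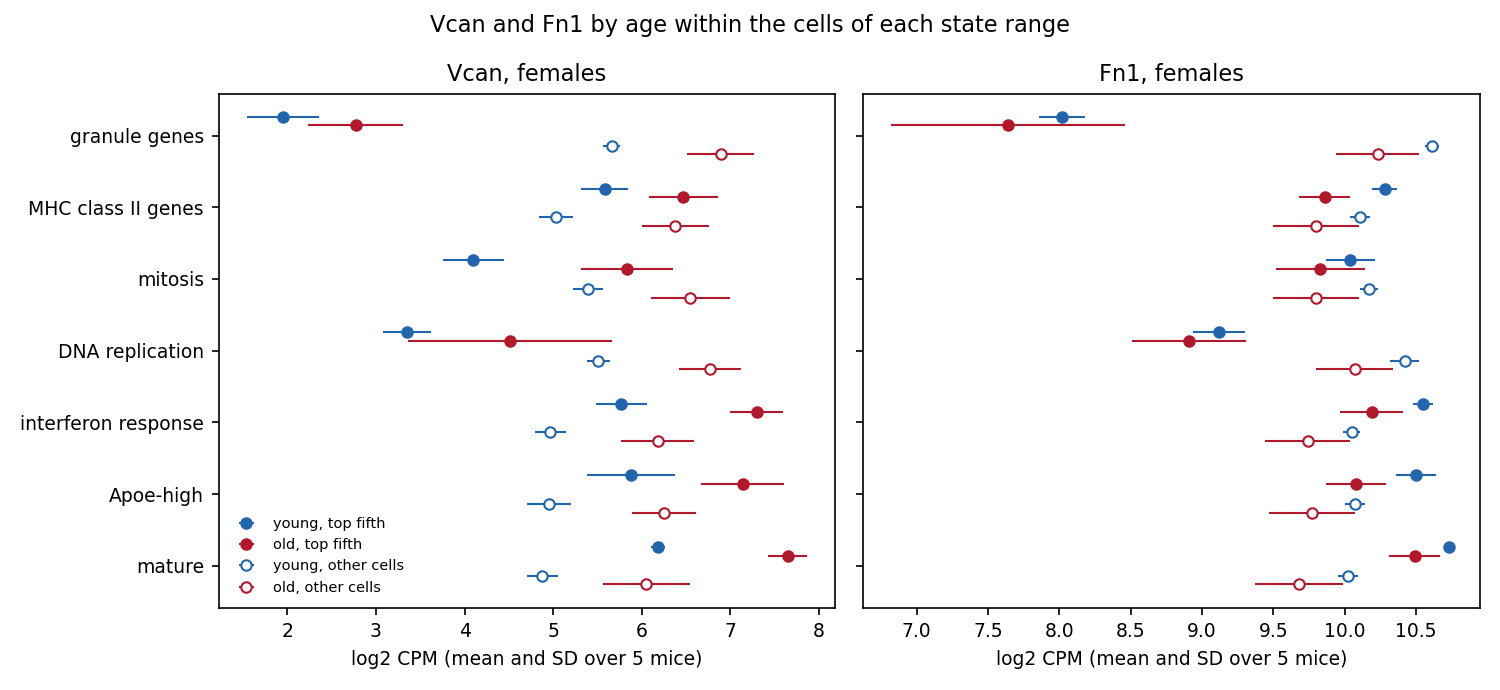
Mean log2 CPM of Vcan (left) and Fn1 (right) over 5 young (blue) and 5 old (red) female mice, with SD, in the 20% of cells with the highest share of each state list (filled) and in the other cells (open). Old females lie to the right of young females for Vcan and to the left for Fn1 in each pair, and both genes are lowest in the cells richest in granule genes.

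Levels across cell states were tested by exact two-sided sign-flip permutation over the 10 mice of a sex, on the difference in log2 CPM within each mouse. The smallest p that 10 mice allow is 0.00195. All 5 members shared the direction in some lists and split in others. Each p was adjusted over all genes tested with that list in that sex, and 43 of 61 contrasts of a member with a list passed (45 of 61 with adjustment over the contrasts themselves). Many genes differ between such ranges, so the share of all genes that passed is given with each list. Over all genes, 31 of 54 passed with cells thinned to 2000 UMIs, and 35 of 61 with males limited to cells called hashtag singlets.

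All members were low in cells rich in transcripts of primary granules (Mpo, Elane, Prtn3, Ctsg and Ms4a3), which mark early, neutrophil-like monocytes and their precursors. In females Vcan was lower by -3.91 (SD 0.46), Thbs1 by -3.55 (SD 1.18), Fn1 by -2.59 (SD 0.44), Tgfbi by -1.10 (SD 0.19) and F13a1 by -0.55 (SD 0.09) on the log2 scale, each in 10 of 10 mice (exact p = 0.00195; adjusted over all genes 0.00402). In that contrast 71.2% of all genes passed in either direction, and 0.126% had a lower difference than Vcan. In males the differences were -2.76 (SD 1.41) for Vcan, -2.24 (SD 0.61) for Fn1 and -1.16 (SD 0.40) for Tgfbi, each in 10 of 10 mice, and -0.38 (SD 0.26) for F13a1 in 9 of 10, and these 4 passed beside 40.3% of all genes. The median difference over members was -2.59 in females and -1.70 in males, against -0.09 and -0.05 over all genes. The cells compared differed in depth, at a median of 19849 and 8617 UMIs in females. In the granule-rich cells, Thbs1 in females lay at -0.06 and Vcan in males at 2.41 on the log2 CPM scale. These rest on few UMIs, so the prior count affects the size of those differences.

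The same order held for DNA replication genes (Mcm2 to Mcm7 and others), where all 5 members in females and all 4 in males passed downward. Vcan differed by -2.21 (SD 0.65) in females and -2.34 (SD 0.76) in males, and Fn1 by -1.23 (SD 0.24) and -1.37 (SD 0.46), each in 10 of 10 mice. The shares over all genes were 70.4% and 37.9%. The replication and granule lists were not separate. In females, the replication-rich cells had a median of 0.343% of UMIs on the granule list, against 0.0492% in cells that were not granule-rich. In males these values were 0.182% and 0.0314%. The replication-rich cells were also deeper, at a median of 17299 UMIs against 8479 in other female cells. How far the replication differences reflect granule-rich cells was not tested. Mitosis genes (Mki67, Top2a and others) split the members. In females Vcan (-1.01, SD 0.60), Thbs1 (-0.88, SD 0.55) and Tgfbi (-0.15, SD 0.13) were lower and F13a1 was higher (0.25, SD 0.13, in 10 of 10 mice), while Fn1 differed by -0.05 (SD 0.23; exact p = 0.523). No member passed in males (Vcan -1.81, SD 1.47, adjusted p over all genes 0.0639 in the exact test). All genes passed at 48.7% in females and 8.91% in males.

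With the mature list, 3 of 4 members tested in females and 2 of 3 in males passed upward. Vcan was higher by 1.45 (SD 0.38) in females and 1.41 (SD 1.12) in males, in 10 and 9 of 10 mice. Tgfbi was higher by 0.47 (SD 0.06) and 0.58 (SD 0.26), in all 10 mice of each sex. F13a1 rose by 0.18 (SD 0.07) in females, and its difference in males was 0.22 (SD 0.30; exact p = 0.0508, adjusted over all genes 0.130). Thbs1, at 1.06 (SD 1.39), did not pass in females (exact p = 0.0430, adjusted over all genes 0.0717). Fn1 was left out of that test because the list was taken from markers of the study that include it. The contrasts of the other members with this list are not independent of the study either. Of all genes, 56.3% passed in females and 26.0% in males.

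With Apoe-high genes, which mark a subset close to nonclassical monocytes, Thbs1 (1.03, SD 0.50), Vcan (0.91, SD 0.53), Tgfbi (0.55, SD 0.11) and Fn1 (0.37, SD 0.20) were higher in females and F13a1 was lower (-0.30, SD 0.22, in 10 of 10 mice), beside 59.4% of all genes. In males Tgfbi alone passed (0.73, SD 0.27), beside 29.5%. With interferon response genes, Vcan (0.96, SD 0.35), Thbs1 (0.78, SD 0.80), Fn1 (0.47, SD 0.11) and Tgfbi (0.40, SD 0.12) passed upward in females and F13a1 did not (0.02, SD 0.06; exact p = 0.381), beside 51.6% of all genes. Tgfbi passed in males (0.54, SD 0.35), beside 21.8%.

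MHC class II genes (Cd74, H2-Aa and others), which present antigen, split the members again. Tgfbi was higher in the cells rich in them, by 0.36 (SD 0.13) in females and 0.45 (SD 0.29) in males, in 10 of 10 mice each, and F13a1 was lower, by -0.25 (SD 0.18) and -0.55 (SD 0.38), in 9 of 10 mice each. Vcan passed upward in females alone (0.32, SD 0.39; exact p = 0.0215, adjusted over all genes 0.0454), and the difference in males was 0.36 (SD 0.61; exact p = 0.0938). The shares over all genes were 48.1% in females and 17.4% in males. These lists were not separate from the mature list. In females, cells rich in MHC class II, interferon response and Apoe-high genes had median mature-list shares of 4.42, 4.66 and 5.02% of UMIs. Cells not rich in mature genes had 2.84%. Median depths were 7731, 7656 and 7055 UMIs, against 11098, 11046 and 11572 in the other cells. The part of mature cells in these differences was not tested.

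**Figure D4:**
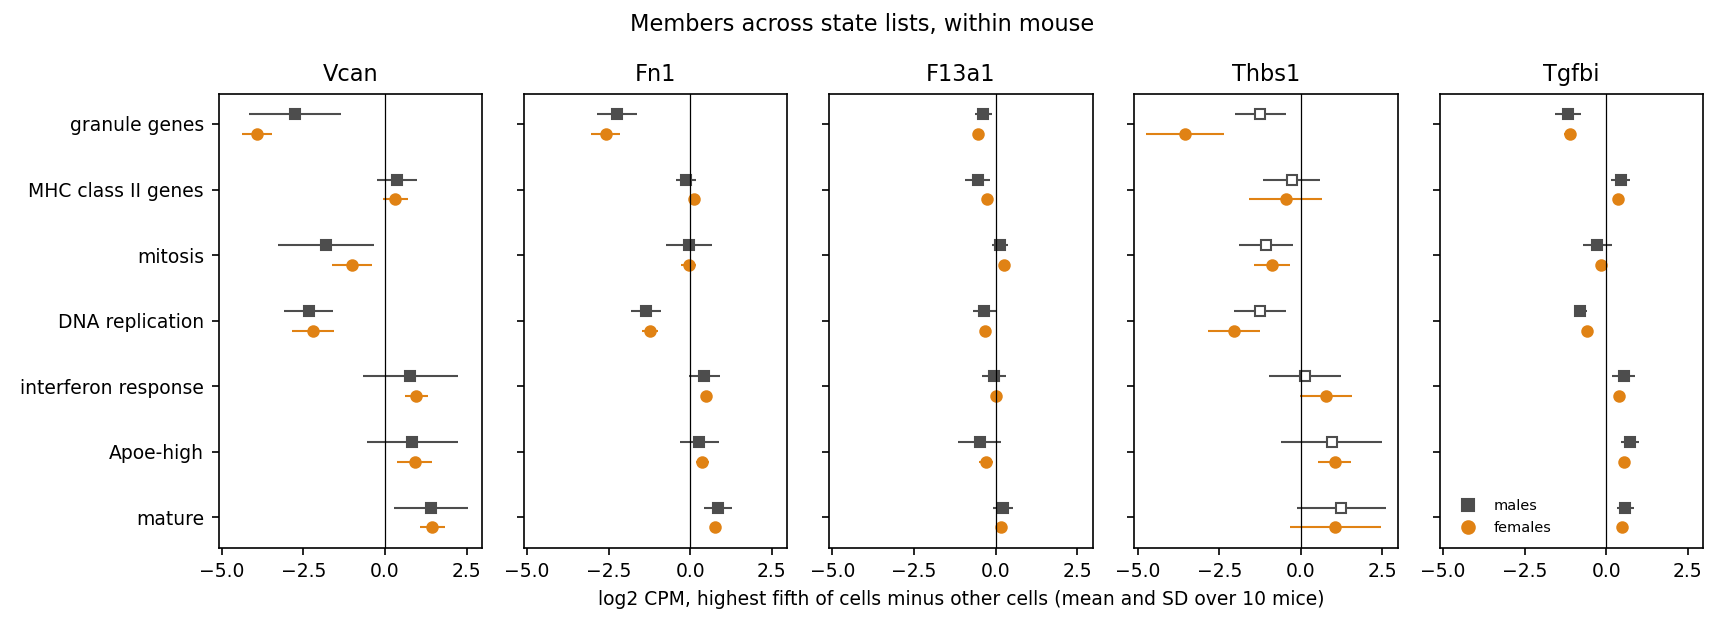
Difference in log2 CPM of each gene between the 20% of cells with the highest share of a state list and the other cells of the same mouse, as mean and SD over 10 mice, for males (gray squares) and females (orange circles); open symbols had too few UMIs for a test. Vcan has the widest span, from -3.91 with granule genes to 1.45 with mature genes in females, and F13a1 the narrowest.

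The female cells also carried counts of 6 surface antibodies, a readout of protein. The 20% of the cells of a mouse with the highest centred log ratio of an antibody were compared with its other cells. That ratio sets each antibody against the others, so the rankings of cells by CD11b and by CD115 are not independent. With adjustment over all genes, 11 of 30 contrasts passed (17 of 30 over the contrasts themselves). Over all genes, 7 passed with cells thinned to 2000 UMIs and 10 with antibody counts as deposited. With CD11b, an integrin chain that binds fibrinogen, Vcan was higher by 1.17 (SD 0.29), Thbs1 by 1.06 (SD 0.83), Fn1 by 0.65 (SD 0.14) and Tgfbi by 0.42 (SD 0.06), in 10, 8, 10 and 10 of 10 mice, beside 48.4% of all genes. F13a1 differed by 0.06 (SD 0.10; exact p = 0.0879). With CD115, the receptor for CSF1, all 5 members were lower in 10 of 10 mice, beside 41.2% of all genes, with Thbs1 at -1.89 (SD 1.16), Vcan at -1.56 (SD 0.48), Fn1 at -0.83 (SD 0.21), Tgfbi at -0.46 (SD 0.07) and F13a1 at -0.16 (SD 0.10).

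With Ly6C, Vcan (-0.68, SD 0.51) and Fn1 (-0.28, SD 0.22) passed downward, beside 21.5% of all genes. With Flt3, CD11c and MHC class II antibodies, no member and 0% of all genes passed, although 878, 847 and 1671 genes had an unadjusted exact p under 0.05. With the MHC class II antibody F13a1 was lower by -0.30 (SD 0.10) in 10 of 10 mice (exact p = 0.00195, adjusted over all genes 0.0942) and Fn1 by -0.31 (SD 0.22) in 9 of 10. That p is the smallest 10 mice allow, so a gene passes over all genes only where many others also reach low p. Not passing here therefore does not show that a difference is absent. CD115, Flt3 and CD11c had medians of 4, 2 and 2 counts per cell, against 482 for Ly6C, 39 for CD11b and 22 for MHC class II, so their rankings of cells are coarse.

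**Figure D5:**
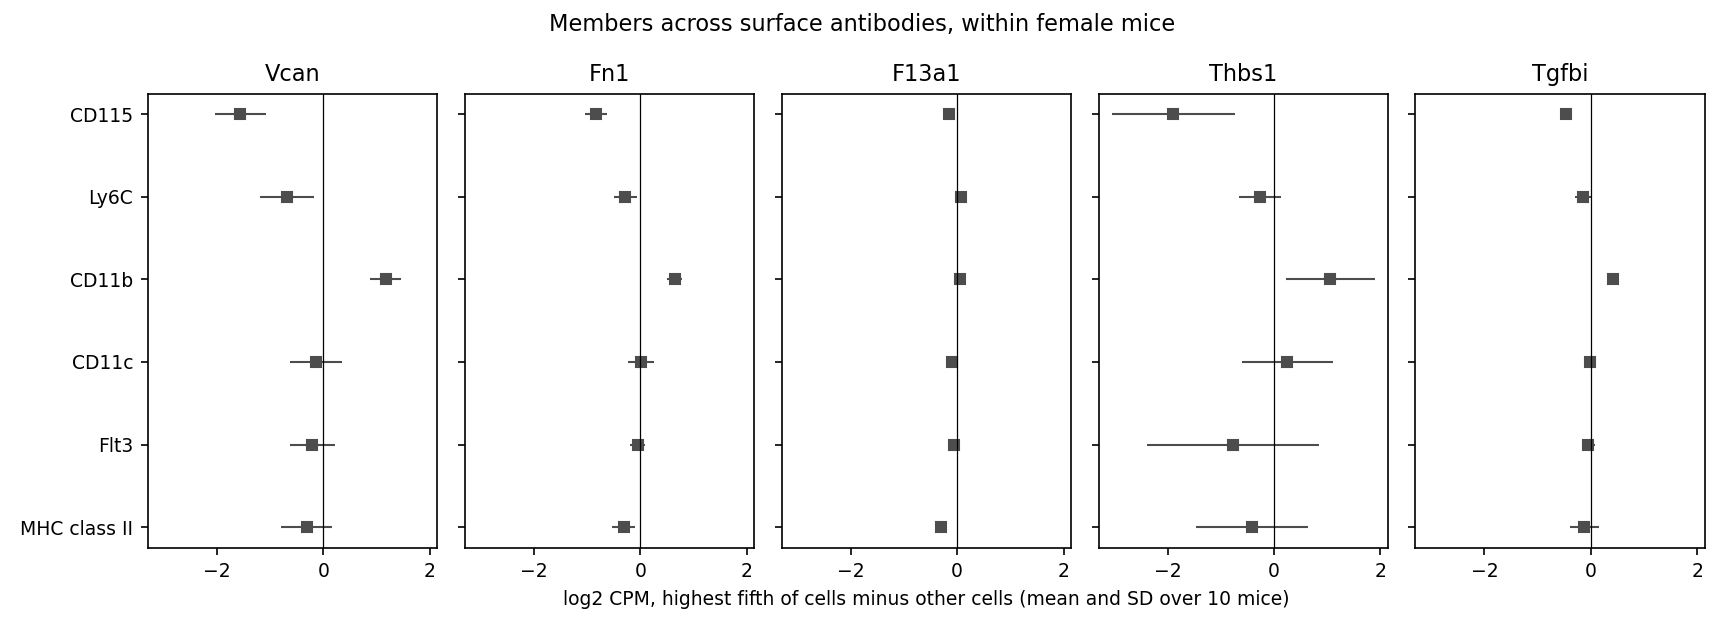
Difference in log2 CPM of each gene between the 20% of female cells with the highest centred log ratio of a surface antibody and the other cells of the same mouse, as mean and SD over 10 mice. Vcan, Fn1, Thbs1 and Tgfbi are higher with CD11b and lower with CD115, and F13a1 is at 0.06 and -0.16 with them.

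Among single female cells, the members were loosely related to each other. The mean within-mouse Pearson correlation over the 10 females was 0.39 for Fn1 with F13a1 and with Tgfbi, 0.35 for Fn1 with Vcan and 0.06 for Thbs1 with Tgfbi. Over 8740 genes found in at least 5% of female cells, and leaving the members out, those most like Fn1 were Lyz2 (0.65), S100a4 and Lgals3 (0.60 each). For Tgfbi they were Lyz2 (0.53), Psap and Lgals3 (0.50 each), and for F13a1 Lgals3 (0.39), Tmsb10 (0.36) and Anxa2 (0.35). For Vcan they were Cybb (0.32), Lyz2 (0.30) and Ccl6 (0.29). Those of Thbs1, namely Mmp8, Gda and Chil3, stayed at or below 0.17, beside 0.18 for Thbs1 with Vcan, and are not read. These values share the cells, libraries and depth and are descriptions.

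Of the other genes of the matrix, 169 were listed in 6 groups and found in the files, and in females 7 of the 86 with enough UMIs passed the age test of edgeR, beside the 3.42% of all genes. Their median log2 fold change was 0.05, against 0.00 over all genes. These lists were chosen with earlier results of these data known. The share called is therefore a description and no test of the lists against all genes. The clotting and crosslinking group had 3 of 11 called, all higher in old females: F10, clotting factor X (186 ± 20.5 against 144 ± 7.72 CPM, log2 fold change 0.37, SE 0.07, adjusted p = 0.00697), Tgm1, transglutaminase 1 (1.10, SE 0.19, adjusted p = 0.00389), and Plod3, a collagen lysyl hydroxylase (0.21, SE 0.04, adjusted p = 0.0135). Among 18 matrix receptors, Lair1, a collagen receptor, was higher (0.39, SE 0.09, adjusted p = 0.0320), and the integrin chains Itgb3 (-0.89, SE 0.16, adjusted p = 0.00496) and Itga1 (-0.42, SE 0.10, adjusted p = 0.0286) were lower.

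Of 10 matrix proteins and proteoglycans in females, Ecm1 was higher (0.78, SE 0.19, adjusted p = 0.0294 in edgeR). None of the 18 proteases and inhibitors, 15 hyaluronan and chondroitin sulfate genes and 14 TGF-beta signalling genes passed, although 4, 3 and 0 of them had an unadjusted p under 0.05. Of 15 alternative settings, F10 was called under all 15, Tgm1 and Itgb3 under 14, Plod3 under 13, Lair1 under 10, and Ecm1 and Itga1 under 9. With cells thinned to 2000 UMIs the genes called were F10, Lair1 and Fgl2, and the calls of Ecm1, Itga1, Itgb3, Plod3 and Tgm1 were lost. In males 0 of 52 listed genes passed with edgeR (9 at an unadjusted p under 0.05, 1 with DESeq2). F10 was at 102 ± 27.3 CPM in old and 85.3 ± 15.2 CPM in young males, and Itga1 at 13.7 ± 10.1 and 16.4 ± 6.89 CPM.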

How the data were processed

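The submitters' processing notes name mm10, STAR 2.5.1 and Cell Ranger 4.0.0, whereas the file headers name Cell Ranger 3.1.0 for females and 7.0.0 for males, so the sexes may differ in counting. The authors deposited raw UMI counts, for genes and antibodies in each barcode. The deposited male barcodes held 0 that HTODemux called negative and 0 at 5% mitochondrial UMIs or more, and in 401 called doublets the leading hashtag had a median of 95.1% of hashtag counts, so all 1227 were used and given to the mouse of their leading hashtag. In females the HTODemux singlets (Seurat 5.3.0, CLR values) with over 200 genes and under 5% mitochondrial UMIs were used, 6641 cells. The hashtag table names the mice, and 0 columns of per-sample values were left unused.

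UMIs were summed per mouse and old was compared with young within a sex with edgeR 4.0.16, using its quasi-likelihood test (filterByExpr, TMM, Benjamini-Hochberg over all genes tested, 0.05), with DESeq2 1.42.0 as an alternative. Within-mouse contrasts were taken on log2 CPM (prior count 1), at least 10 cells on each side and a mean of at least 10 UMIs per mouse; 85 female cells without antibody counts have no centred log ratio and were left out of the antibody contrasts. Scripts were tested on simulated data. Likeness used UMIs scaled to 10000 per cell, on a log scale. Gene positions came from GENCODE vM21. Genes named were the 5 members, the listed matrix genes called in a sex (at most 10, by adjusted p) and the 3 genes most like each member. The members and gene lists were chosen with earlier results of these data known. P-values measure the spread between mice, and counting depth limits Thbs1 and the male values of Vcan.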

Additional observations from a re-analysis of the deposited data

Results flagged for a closer look

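Fn1 in old male 1, at 735 CPM, lay far from the other 4 old males, at 411 to 484 CPM, by Dixon's criterion. Of 54 groups of 5 mice examined in this way (levels, shares of positive cells and levels in positive cells of the members), 1 was singled out, and chance alone gives about 1 in 20. Old male 1 also had the most cells of the old males, 206, and the log2 fold change of Fn1 in males was -0.78 without it and -0.60 with it.

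Plaur, the urokinase receptor and a listed matrix receptor, differed between the sexes in its change with age by 0.75 on the log2 scale (female minus male, SE 0.12, adjusted p = 0.0105 in the edgeR interaction test). In that test 2 of 8893 genes passed, and Plaur was the 1 that passed among 81 listed genes. It was picked from that search. Plaur was at 74.5 ± 8.70 CPM in old and 116 ± 14.9 CPM in young males (log2 fold change -0.63, SE 0.13) and at 97.6 ± 6.91 and 89.6 ± 4.80 CPM in females (0.12, SE 0.06). Each sex was 1 library, and the file headers name different Cell Ranger versions for them, so sex and library cannot be told apart.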

How the results depend on the processing

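The number of listed matrix genes called in females was 7, and 9, 7, 9 and 5 with DESeq2, library size alone, no filter on low counts and the leading hashtag for every female barcode. It was 3 with cells thinned to 2000 UMIs and 4 to 10 without 1 mouse, lowest without young female 1 or 5. In males it was 0, but 1 with DESeq2 (Plaur), 2 with no filter (Plaur and Cst3), and 0 to 1 without 1 mouse, Plaur being called without old male 4. State-list contrasts passing numbered 45 (44 to 48 without 1 mouse), and all alternatives lay within 1.5 times of that. Antibody contrasts passing numbered 17 (14 to 19 without 1 mouse) and 11 with adjustment over all genes, a setting chosen after seeing the data, as were the cuts on antibody counts (15 with at least 100 per cell, 19 with cells that hold none). Of the members' log2 fold changes under alternatives, 57 of males and 71 of females moved by no more than 1 SE, and 2 and 4 by more. The cause of these shifts was not tested. No paired analysis was possible because mouse numbers name the mice and link none across ages. Depth limits Thbs1 in both sexes.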
